A study of Mus musculus with 31 samples.

Results

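Of the H3K27ac islands called in Nkx2-1-positive mouse lung adenocarcinomas, 10169 had no counterpart in Nkx2-1-deleted tumors and lay there under no H3K4me1 and no H3K27me3 island either; they are called lost unmarked islands here. They were chosen by the island calls of H3K27ac in both tumor types and of H3K4me1 and H3K27me3 in deleted tumors, from the 70686 autosomal H3K27ac islands of positive tumors narrower than 20000 bp (73539 on all chromosomes and widths), as those that shared not even 1 bp with a deleted-tumor island of the 3 marks. An island is a stretch in which the authors' caller found more reads than background, and lost means only that no island was called at that place in deleted tumors. H3K4me3 of deleted tumors was not part of the choice and was present at 75 of them.

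The groups were Nkx2-1-deleted and Nkx2-1-positive lung adenocarcinoma, from mice aged 4 to 7 months whose strain is labelled mixed 129/B6. Per the labels' protocols, tumors were started by adenovirus or lentivirus given through the trachea, and tamoxifen was injected at 56 or 112 micrograms per gram of body weight. The oncogenic alleles, the Nkx2-1 allele and the virus and dose that each mouse received are not given in the sources used here. Whole pulverized tumors were used, so fewer marked cells and less mark per cell cannot be told apart. Each of the 11 groups of target and tumor type had 2 libraries, but their 2 deposited files were identical, so each group is 1 merged list, no spread between mice exists and no test between tumor types could be made. Both Foxa1/2 libraries of deleted tumors were from female mice and both of positive tumors, as well as both Nkx2-1 libraries, from male mice, so sex and tumor type cannot be told apart for Foxa1/2. The histone groups held 1 male and 1 female mouse each. Reads inside H3K27ac islands came to 31.2 M in deleted and 45.7 M in positive tumors, and whether the libraries differed in total depth is not given.

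H3K27ac marks active promoters and enhancers, and H3K4me1 marks enhancers whether active or only primed, so an enhancer that is shut but still primed would show H3K4me1 without H3K27ac. H3K4me3 marks promoters, and H3K27me3 is laid down by the Polycomb repressive complex at silenced genes. Nkx2-1 is a transcription factor that specifies lung and thyroid cell identity, and Foxa1 and Foxa2 are pioneer factors that can open chromatin in lung, liver and gut epithelium. Nkx2-1 peaks were measured in positive tumors, and Foxa1/2 peaks, with 1 antibody for both proteins, in both tumor types.

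Weak calls made up most of the lost unmarked islands by read density and by read count. When density was ranked among islands of equal width, the lowest 3 of 10 groups held 47.5% of them. Losing H3K27ac was common in the list as a whole, at 32.7% of the islands examined, and the full rule took 14.4% of them (95% Wilson interval 14.1 to 14.7). The lost unmarked islands held a median of 94 reads (quartiles 70 and 136) over a median of 1400 bp, against 115 reads over 1600 bp at lost islands that stayed under H3K4me1 without H3K27me3 (9324 islands) and 373 reads over 3200 bp at kept islands (47540). The fourth class, lost islands under H3K27me3 in deleted tumors (3653 islands), had 97 reads over 1400 bp. All of these values come from the list that chose the islands and describe it without a test.

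Their read density, the reads per kilobase of island, had a median of 69.2 and quartiles of 62.0 and 79.5. It was 72.5 at lost islands keeping H3K4me1, 69.5 at lost islands under H3K27me3 and 110 at kept islands. When all islands examined were ranked by density and split into 10 groups of equal number, 6359 lost unmarked islands (62.5%, interval 61.6 to 63.5) fell in the lowest 3 groups, against 52.7% of lost islands keeping H3K4me1, 63.0% (61.4 to 64.5) of lost islands under H3K27me3 and 16.0% of kept islands. Weak calls were thus as frequent among lost islands under H3K27me3. Only 155 (1.52%) were in the highest 3 groups and 3 in the highest. The classes thus overlapped over the lower part of the list and separated at its top.

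Seen from the density groups, lost unmarked islands were 36.1% of the lowest group, which reached up to 62.0 reads per kb, 15.0% of the fifth group and 1.82% of the eighth, which began at 120 reads per kb. Because narrow islands can only be called at high density, each island was also set against the lowest read count called at its own width. By this measure 6977 lost unmarked islands (68.6%) held less than 1.5 times the lowest count, against 34.3% of all islands examined. The share was 56.3% of lost islands keeping H3K4me1, 67.1% of lost islands under H3K27me3 and 20.2% of kept islands. The median count of the lost unmarked islands was 1.36 times the lowest. Ranked by density among islands of equal width, 47.5% lay in the lowest 3 groups, still above the 30% that the ranking gives to the whole list. Together the lost unmarked islands covered 16.6 Mb and held 3.41% of the reads of the islands examined.

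**Figure D1:**
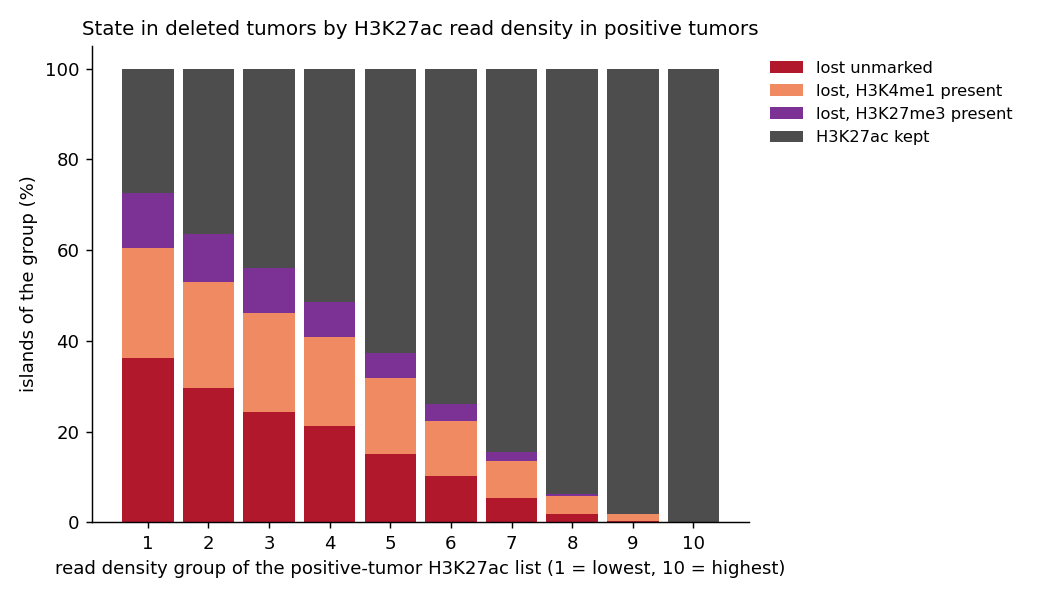
Share (%) of the H3K27ac islands of positive tumors in each of 10 read density groups (1 = lowest) that were lost unmarked, lost with H3K4me1 present, lost with H3K27me3 present, or kept in deleted tumors. Lost unmarked islands make up 36.1% of the lowest group and 1.82% of the eighth.

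H3K4me1 in positive tumors, which the rule did not use, divided the lost unmarked islands into near-equal parts. An H3K4me1 island of positive tumors overlapped 4942 of them (48.6%, interval 47.6 to 49.6), against 84.2% of all islands examined and 55.1% (53.4 to 56.7) of lost islands under H3K27me3. Against the next classes the choice of islands sets much of the difference, since most positive-tumor H3K4me1 islands had a counterpart in deleted tumors: it was at 96.2% of lost islands keeping H3K4me1 and at 91.8% of kept islands. The other 5227 were under no H3K4me1 island in either tumor type, so for them the absence of the mark in deleted tumors is no difference between the lists.

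Where H3K4me1 was present in positive tumors, it usually covered most of the H3K27ac island, with a median cover of 85.7% and full cover at 2002 islands. For 4128 of the 4942, the overlapping H3K4me1 island was itself absent from deleted tumors over its whole length. At the other 814, another stretch of that H3K4me1 island still overlapped a deleted-tumor H3K4me1 island, so the lost unmarked island sat in a part of the domain that had no island there. Counted by H3K4me1 islands, 83.6% of the 4712 that held a lost unmarked island were absent in deleted tumors, against 22.8% of all autosomal H3K4me1 islands, a contrast that the rule sets in large part.

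The remaining marks were rare. H3K4me3 covered 75 lost unmarked islands (0.738%, interval 0.589 to 0.923) in deleted and 360 (3.54%, 3.20 to 3.92) in positive tumors, against 30.6% and 41.1% of all islands examined, so few of them carried the promoter mark. Lost islands keeping H3K4me1 had 4.55% in deleted and 20.3% in positive tumors, and lost islands under H3K27me3 had 10.0% and 17.8%. Among the 358 positive-tumor H3K4me3 islands that overlapped a lost unmarked island, 78.2% (interval 73.6 to 82.2) had no counterpart in deleted tumors. The share was 31.8% of all autosomal H3K4me3 islands, 72.5% (70.4 to 74.4) at lost islands keeping H3K4me1 and 42.2% (38.4 to 46.0) at lost islands under H3K27me3. The rule sets much of the contrast with the whole lists for H3K4me3 of deleted tumors. Of the 21665 islands examined that had this mark, 20799 were kept. The median density of the 358 H3K4me3 islands was 63.3 reads per kb, against 61.7 at lost islands keeping H3K4me1. It was 82.5 at lost islands under H3K27me3 and 96.1 in the whole H3K4me3 list. Weak H3K4me3 was thus shared with lost islands keeping H3K4me1. H3K27me3 of positive tumors lay over 219 lost unmarked islands (2.15%, 1.89 to 2.45), against 10.7% of all islands examined. The rule sets much of this contrast, since it left out lost islands under H3K27me3 of deleted tumors, where the share was 74.1%. Lost islands keeping H3K4me1, chosen without that mark as well, had a lower share, 0.547% (0.416 to 0.718).

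No factor peak of any list lay in 9119 of the lost unmarked islands (89.7%), against 66.3% of all islands examined, 69.9% of lost islands keeping H3K4me1 and 93.8% of lost islands under H3K27me3. Part of the contrast with all islands examined follows from the choice of islands. Of deleted-tumor Foxa1/2 peaks, 96.8% lay under a deleted-tumor island of the 3 marks that the rule excludes. Factor peaks of positive tumors at lost unmarked islands lay mostly under H3K4me1 of positive tumors, which the rule made rarer. In 4913 lost unmarked islands (48.3%) there was neither a factor peak nor any other mark in either tumor type, so the H3K27ac call stood alone. Of all islands examined, 12.1% had no factor peak and none of the marks outside the rule. That share was 3.56% of lost islands keeping H3K4me1, 9.72% of lost islands under H3K27me3 and 6.25% of kept islands. The rule sets much of these contrasts, since it left out islands under H3K4me1 of deleted tumors. The 4913 lone islands were the weaker ones among the lost unmarked islands, with a median density of 67.1 reads per kb and 70.3% in the lowest 3 density groups. A minority did carry the lung factor: Nkx2-1 peaks overlapped 819 (8.05%, interval 7.54 to 8.60), against 25.8% of all islands examined, 23.2% of lost islands keeping H3K4me1, 5.12% of lost islands under H3K27me3 and 31.6% of kept islands. Foxa1/2 peaks of positive tumors overlapped 520 (5.11%, 4.70 to 5.56), against 19.9% of all islands examined, 19.7% of lost islands keeping H3K4me1, 3.59% of lost islands under H3K27me3 and 24.4% of kept islands. Both factors were found together at 305 lost unmarked islands (3.00%), against 14.2% of all islands examined, 13.2% of lost islands keeping H3K4me1, 2.63% of lost islands under H3K27me3 and 17.7% of kept islands.

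Islands with Nkx2-1 were the stronger ones among the lost unmarked islands. Their median density was 78.3 reads per kb, with 39.6% in the lowest 3 density groups, against 68.8 reads per kb and 64.5% for islands without Nkx2-1. The share with Nkx2-1 was 3.88% (99 of 2554) in the lowest density group, 11.8% in the fifth and 34.1% (44 of 129) in the eighth. For Foxa1/2 these shares were 2.98%, 5.66% and 23.3%. Thus few of the weak calls and many of the strong ones had a factor peak.

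Compared within density groups, the lost unmarked islands stood below lost islands keeping H3K4me1 for both factors, while for Nkx2-1 they lay close to kept islands. Lost islands keeping H3K4me1 had Nkx2-1 more often in all 9 density groups with at least 20 islands of each class, for example at 79.4% in the eighth group, and in all 29 strata of density and width together. The difference over all islands was -15.1 points for Nkx2-1 (interval -16.1 to -14.1) and -14.6 points for Foxa1/2 (-15.5 to -13.7), each with this sign on 19 of 19 autosomes. Kept islands had 3.65% with Nkx2-1 in the lowest density group, 12.0% in the fifth and 38.8% in the eighth, close to the lost unmarked islands. Intervals overlapped in 8 of the 9 groups compared, all but the sixth, with lost unmarked islands lower in 7 groups and higher in 2. With width matched as well, lost unmarked islands had the higher share with Nkx2-1 in 23 of 30 strata, although over the whole list they were 23.6 points below kept islands. For Foxa1/2 they were lower than kept islands in 9 of 9 density groups and in 24 of 30 strata. Intervals cover counting error over islands only; neighbouring islands are not independent, so they are too narrow.

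**Figure D2:**
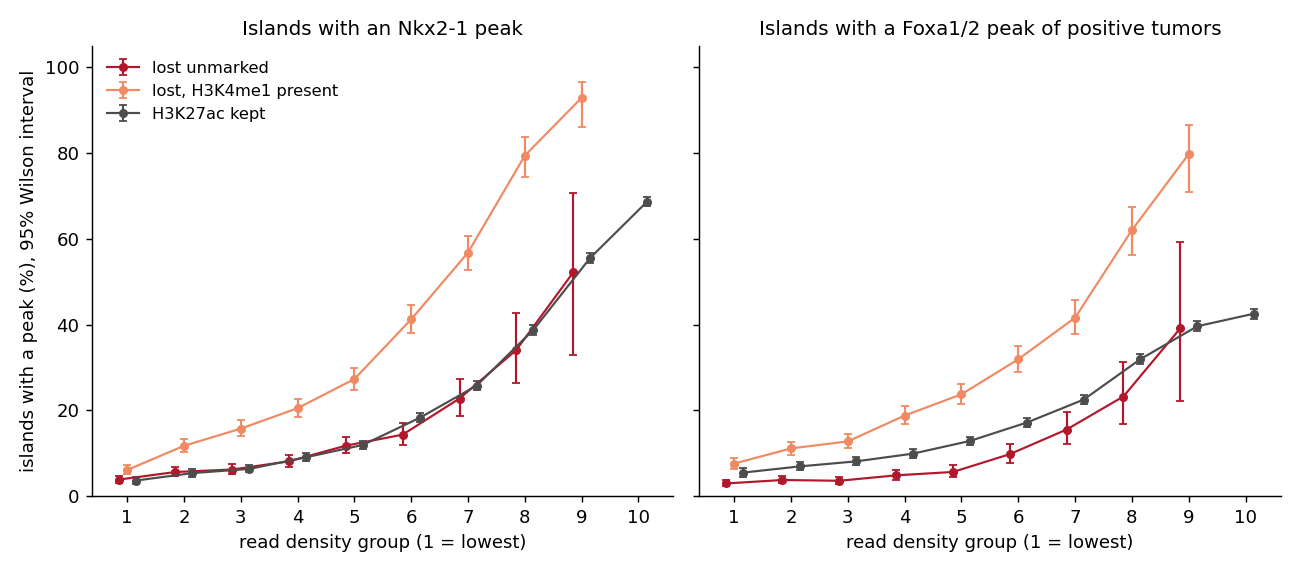
Share (%) of islands with an Nkx2-1 peak (left) or a Foxa1/2 peak of positive tumors (right) in each read density group, with 95% Wilson intervals, for lost unmarked islands, lost islands keeping H3K4me1 and kept islands; points with under 20 islands are left out. For Nkx2-1 the lost unmarked islands run along the kept islands (34.1% and 38.8% in group 8), well under the lost islands keeping H3K4me1 (79.4%).

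Nearly all factor peaks lay in the part that had H3K4me1 in positive tumors. There, 795 of 4942 islands (16.1%, interval 15.1 to 17.1) had Nkx2-1 and 499 (10.1%, 9.29 to 10.97) had Foxa1/2 of positive tumors, against 24 (0.459%, 0.309 to 0.682) and 21 (0.402%, 0.263 to 0.613) of the 5227 islands without it. This was not particular to lost unmarked islands. In the lowest density group, 91 of their 99 islands with Nkx2-1 were under H3K4me1 of positive tumors. The same held for 69 of 71 kept islands and 24 of 25 lost islands under H3K27me3. For Foxa1/2 of positive tumors it held for 68 of 76 lost unmarked islands, 103 of 107 kept islands and 14 of 14 lost islands under H3K27me3. The lost unmarked islands with and without H3K4me1 in positive tumors had median densities of 71.7 and 67.5 reads per kb and medians of 106 and 85 reads. In the lowest 3 density groups lay 55.5% and 69.2% of them. Within the H3K4me1 part, islands whose whole H3K4me1 island was absent from deleted tumors had Nkx2-1 in 17.7% of cases, and those whose H3K4me1 island was found elsewhere along its length in 7.74%.

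When only islands under H3K4me1 of positive tumors were compared, a comparison added after the data had been seen, the order against kept islands turned within density groups. Over all such islands 16.1% of lost unmarked and 34.4% of kept islands had Nkx2-1, yet the lost unmarked islands had the higher share in 8 of 8 density groups, for example 9.09% against 5.36% in the lowest and 48.9% against 39.6% in the eighth. For Foxa1/2 of positive tumors they were lower than kept islands in 6 of 8 groups. Against lost islands keeping H3K4me1 the difference shrank to -7.98 points (interval -9.32 to -6.62) for Nkx2-1, with 7 of 8 groups of that sign, and to -10.3 points (-11.5 to -9.14) for Foxa1/2, with 8 of 8.

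**Figure D3:**
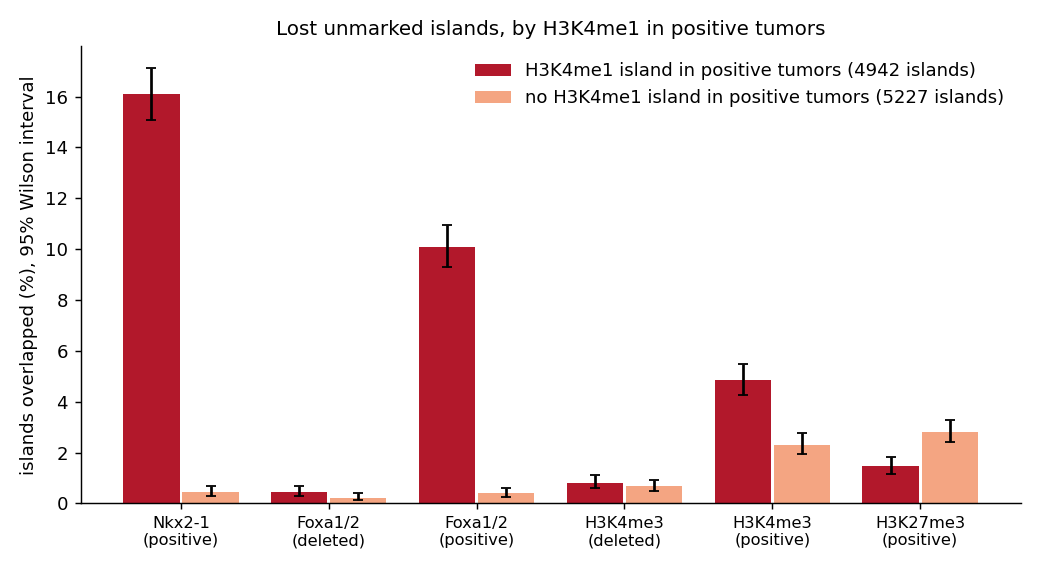
Share (%) of lost unmarked islands overlapped by factor peaks and by other marks of the named tumor type, with 95% Wilson intervals, for the 4942 islands with and the 5227 without an H3K4me1 island in positive tumors. Nkx2-1 stands at 16.1% and 0.459%, Foxa1/2 of positive tumors at 10.1% and 0.402%.

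The Nkx2-1 peaks at lost unmarked islands were somewhat weaker than their list. The 812 peaks had a median score of 131, against 162 for all 29265 autosomal peaks, where the score is the value given by the authors' peak caller. The lowest 25% of the list by score supplied 31.7% and the highest 25% supplied 18.1% of them. At 76.1% of the islands with a peak, the summit of the best one lay inside the island, a median of 410 bp from its centre. At lost islands keeping H3K4me1, 84.8% of summits lay inside, and at the wider kept islands 97.3%. Width was not matched in this comparison. Of the islands with Nkx2-1, 97 of 819 lost unmarked and 612 of 2161 lost islands keeping H3K4me1 were at least 4000 bp wide. At part of the lost unmarked islands with a peak, the acetylated stretch thus lay beside the bound site and not over it.

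Foxa1/2 peaks at lost unmarked islands were almost all absent from deleted tumors, as were most of those at the other lost islands. Of the 504 positive-tumor peaks there, 485 (96.2%, interval 94.2 to 97.6) had no deleted-tumor peak, against 57.9% of all autosomal positive-tumor peaks. The share was 88.7% (87.2 to 90.1) at lost islands keeping H3K4me1, 90.4% (84.3 to 94.3) at lost islands under H3K27me3 and 51.7% at kept islands. High peak scores made little difference: in the highest 25% of the list, 67 of 72 peaks (93.1%, 84.8 to 97.0) were absent, against 33.4% of all peaks of that rank, 73.1% (68.6 to 77.1) of those at lost islands keeping H3K4me1 and 34 of 38 (89.5%, 75.9 to 95.8) at lost islands under H3K27me3. Part of this follows from the choice of islands, since 96.8% of deleted-tumor Foxa1/2 peaks lay under a deleted-tumor island of the 3 marks that the rule excludes. Conversely, only 34 lost unmarked islands (0.334%) had a Foxa1/2 peak of deleted tumors, against 12.5% of all islands examined, and 15 of those 34 peaks were without a positive-tumor peak (44.1%, 28.9 to 60.5), against 32.9% of all autosomal deleted-tumor peaks, a share within that interval.

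The 5 lost unmarked islands with the most reads, given in build mm9, all carried both lung factors. The one with the most reads lay at chr3:62774801-62785400, with 1559 reads over 10600 bp, an Nkx2-1 peak scoring 103 and a Foxa1/2 peak scoring 467. The next, at chr9:20416401-20423600, held 1393 reads over 7200 bp and 2 peaks of each factor, the best scoring 1047 for Nkx2-1 and 650 for Foxa1/2. H3K4me3 covered none of it in deleted tumors and 41.7% of it in positive tumors. The others by reads were chr19:21620801-21629800 (1255 reads), chr19:37136401-37145400 (1209 reads) and chr13:34760601-34769200 (1176 reads), and the last held the highest positive-tumor Foxa1/2 score of all lost unmarked islands, 1908. All 5 had no deleted-tumor Foxa1/2 peak, and H3K4me1 of positive tumors covered between 41.9% and 93.3% of each.

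Width and density picked out partly different places. Beside the island on chromosome 3, the widest was chr6:127775601-127786200, also 10600 bp, with 878 reads, no factor peak and 18.9% H3K4me1 cover. The island at chr5:91779201-91789200 (10000 bp) had 3 Nkx2-1 and 2 Foxa1/2 peaks and lay 40200 bp from the nearest H3K27ac island of deleted tumors, whereas chr17:34383601-34392600 (9000 bp) had no factor peak and lay 800 bp from one. Another of 9000 bp, chr15:8585001-8594000, had 1 Nkx2-1 peak, and the islands on chromosome 19 given above were equally wide. Among islands of at least 1000 bp the densest was chr6:102865401-102868800, with 773 reads over 3400 bp (227 reads per kb), an Nkx2-1 peak scoring 337 and no Foxa1/2 peak. Its nearest deleted-tumor H3K27ac island was 425400 bp away. The second densest was chr3:5684401-5686000 (214 reads per kb), 106800 bp from the nearest. Next were chr5:93737201-93738400 and chr13:14517201-14522800, with 196 and 179 reads per kb, and between them the island on chromosome 9 given above.

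The strongest Nkx2-1 peaks did not lie at the strongest islands. A single peak scoring 2990 bridged the neighbouring islands chr16:32477401-32479600 and chr16:32480001-32481000, whose densities were 75.9 and 81.0 reads per kb, and the Foxa1/2 peak there scored 1666. The next, scoring 2636, lay at chr1:187056401-187060800 (83.2 reads per kb), followed by 1667 at chr13:72348201-72349400 and 1599 at chr16:23966601-23967400. These 5 islands stood in density groups 2 to 5. For Foxa1/2 of positive tumors, chr3:51427401-51430600 (score 1860) and chr1:42955001-42958800 (1654) completed the first 5.

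Of the lost unmarked islands that held Foxa1/2 in deleted tumors, the highest score was 788 at chr1:79880801-79882200, where the positive-tumor peak scored 1057. Next came 752 at chr9:122009601-122012000, where positive tumors had neither a Foxa1/2 nor an Nkx2-1 peak and a deleted-tumor H3K27ac island began 800 bp away. The other 3 of the first 5 were chr4:130019401-130021400 (363), chr10:7571601-7573200 (264) and chr15:72577601-72579200 (187), all with a positive-tumor Foxa1/2 peak as well. Their H3K27ac densities ranged from 55.0 to 90.0 reads per kb, below or near the median of all islands examined, 89.3.

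Many lost unmarked islands were close neighbours of chromatin that stayed acetylated. The nearest H3K27ac island of deleted tumors lay a median of 4800 bp away (quartiles 1800 and 14400). The nearest positive-tumor island that was kept lay a median of 4000 bp away, against 5400 bp for lost islands keeping H3K4me1 and 9400 bp for lost islands under H3K27me3. Within 1 kb of a kept island lay 2726 lost unmarked islands (26.8%), against 22.1% of lost islands keeping H3K4me1 and 17.3% of lost islands under H3K27me3. More than 50 kb from any kept island were 983 lost unmarked islands (9.67%). These distances were not computed over all islands examined. In the order of the list, 35.1% stood between kept islands on both sides and 20.7% had none beside them. Kept islands narrower than 20000 bp made up 55.2% of their neighbours in the list, against 66.1% of the list itself. By list order they thus stood beside kept islands less often than the list share.

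H3K4me1 and the factors of positive tumors were least frequent at the lost unmarked islands closest to a kept one. Up to 1 kb away, 34.5% had H3K4me1 in positive tumors, 3.12% Nkx2-1 and 2.02% Foxa1/2 of positive tumors. Over 10 to 50 kb away these shares were 61.8%, 12.5% and 8.13%, and beyond 50 kb they were 56.6%, 11.5% and 10.7%. Median reads stayed between 93 and 95 and median density between 67.9 and 72.0 reads per kb over the 5 distance classes, so the shares differed at nearly equal H3K27ac strength. The rule left out islands under H3K4me1 of deleted tumors, and its part in these shares by distance was not tested. Other classes were not split by distance.

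**Figure D4:**
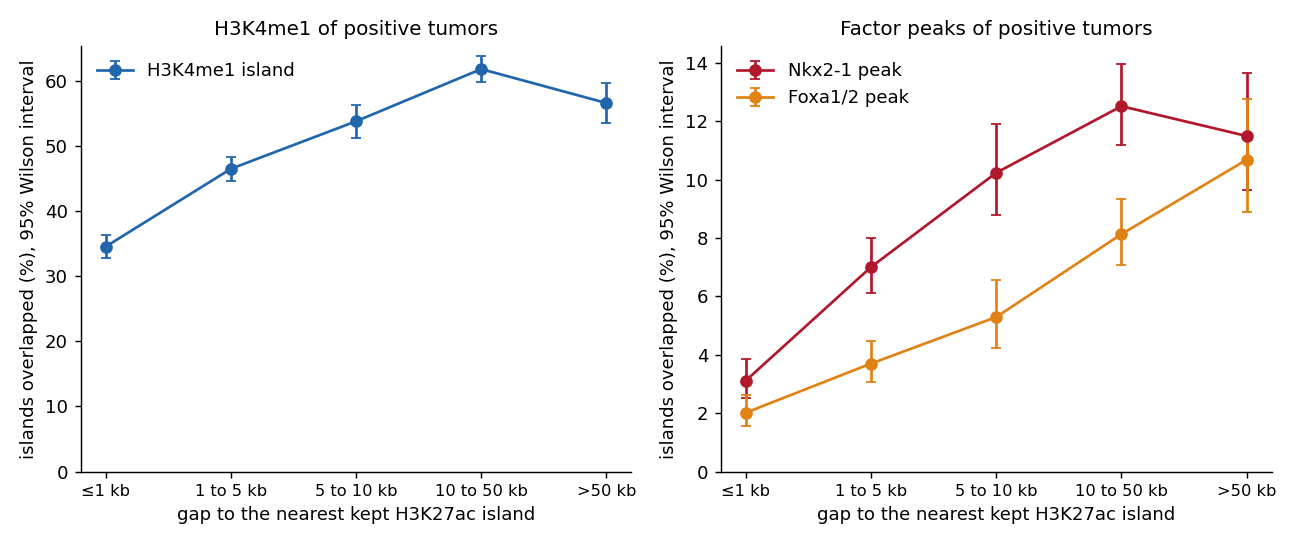
Share (%) of lost unmarked islands with an H3K4me1 island (left) or a factor peak (right) of positive tumors, with 95% Wilson intervals, by the gap to the nearest H3K27ac island that was kept. Nkx2-1 is at 3.12% up to 1 kb and at 12.5% over 10 to 50 kb.

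The lost unmarked islands also stood next to one another. They made up 26.95% of their own neighbours in the list, against 14.1% of the list itself, and 4588 (45.1%) belonged to runs of at least 2 with no other island between. The median gap to the next one was 17600 bp. Runs and gaps within the other classes were not counted. Up to 4 shared 1 positive-tumor H3K4me1 island, and 272 H3K4me1 islands held 2 or more, so these are not separate observations of H3K4me1 loss.

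The longest run counted 14 islands over 417000 bp at chr15:42084801-42501800. Each held 47 to 201 reads, 10 of the 14 were in the lowest 3 density groups, and none had a factor peak. Within this run, deleted tumors had no island of any of the 4 marks, while positive tumors also had 6 H3K4me1 and 5 H3K27me3 islands. The stretch without any deleted-tumor island reached over 683.8 kb and ended at a spot where both tumor types had all 4 marks. Next in length were a run of 9 at chr2:15459601-16258800 and runs of 8 at chr8:105754201-106101800 and chr14:84861001-86471000. All were free of factor peaks in both tumor types and of deleted-tumor islands of all 4 marks, and median densities were between 66.6 and 70.3 reads per kb in the 4 runs. Whether the DNA of these stretches was present in equal amount in both tumor types was not tested.

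**Figure D5:**
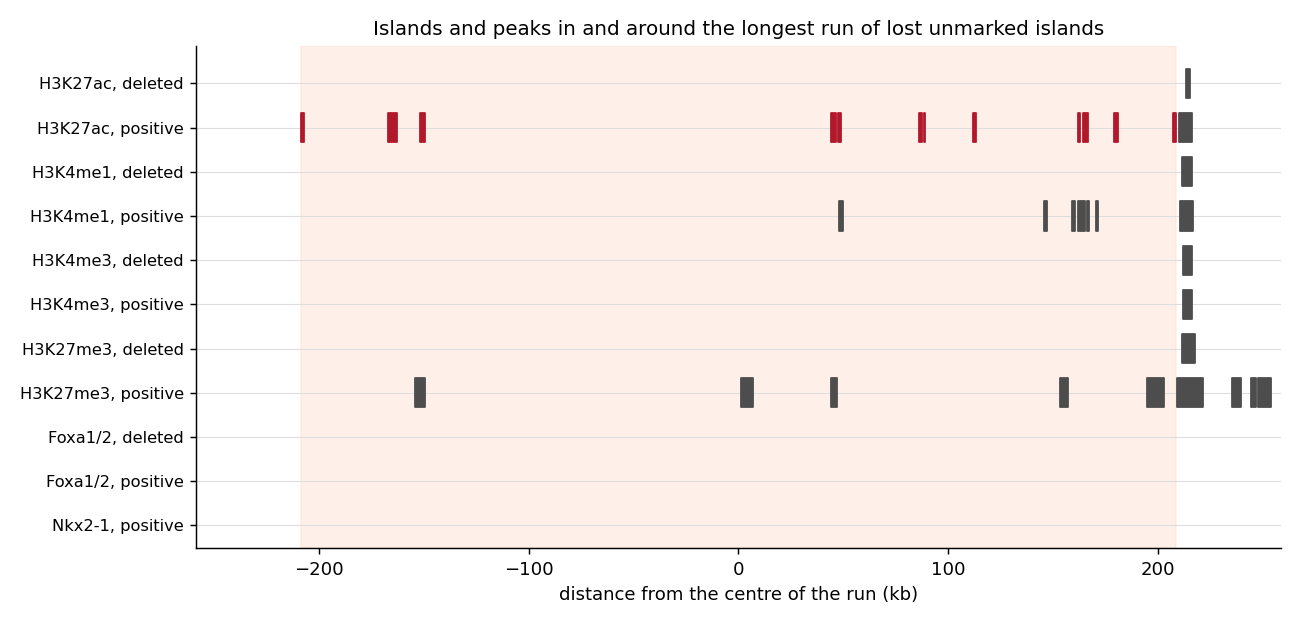
Islands and peaks of each list, by distance (kb) from the centre of the run of 14 lost unmarked islands on chromosome 15 (shaded), with 50 kb on each side; red marks the lost unmarked islands, grey all other features. Deleted tumors have no island inside the run, and all 4 marks are present in both tumor types just right of it.

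At the edge of the rule, 346 lost unmarked islands (3.40%) had a deleted-tumor island of the 3 marks no more than 200 bp away, and 2465 (24.2%) no more than 1000 bp away. Those within 200 bp had a median density of 66.1 reads per kb. Just outside the rule, 263 islands were kept out by an overlap of 200 bp or less, with a median of 70.0 reads per kb. The limit on width kept out nothing that was lost, since none of the 1275 autosomal islands of at least 20000 bp lacked a deleted-tumor H3K27ac island, and the widest lost unmarked islands had 10600 bp.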

How the data were processed

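Chromatin immunoprecipitation was followed by single-end sequencing of 40 to 50 nucleotides, per the labels' protocols. Bowtie, SICER 1.1 and MACS 1.4.2 are listed without roles, and mm9 as the build, per the submitters' processing notes. The island lists deposited by the authors give a read count per island, not scaled for depth or width; the names of these lists give an FDR of 0.01 and windows of 200 bp, joined over gaps of 600 bp for H3K4me1 and H3K27me3 and of 200 bp for the other marks. The peak lists deposited by the authors give a score of at least 60 per peak and a summit; their names carry a p of 1e-06. Names and track headers mark all lists as merged. The sources used here do not give total library depth.

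The 2 files of each group were compared byte by byte and were identical, so each group was 1 list. The end column of the islands was taken as the last base. Overlap meant at least 1 bp. Counts and scores were used only to rank or describe within a list. Shares have 95% Wilson intervals and differences 95% Newcombe intervals; no p-value was computed. The overlap functions were tested on simulated lists and the number of islands was checked with bedtools 2.31.1. Python 3.11.15, numpy 2.4.6 and matplotlib 3.10.9 were used.

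Regions were named by rule: the first 5 by reads, width, density (at least 1000 bp), Nkx2-1 score, and Foxa1/2 score in each tumor type, and the 3 longest runs, with ties for the runs only. The islands, the rule and the comparisons were chosen with earlier results of these data known. Genes were not assigned, because the annotation used here has a different build. The 9 input samples were not analysed here.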

Additional observations from a re-analysis of the deposited data

How the results depend on the processing

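Both differences from lost islands keeping H3K4me1 stayed below 0 under all of their alternatives; the other results are counts, shares and distances, which have no sign. The comparison with kept islands for Nkx2-1 did turn, as described above. Of all 57 alternatives, 8 stayed within 1.5 times the count or within the interval of the value as reported. No paired analysis was possible because both replicates of a group are merged in 1 list; for the same reason no replicate could be left out. The number of lost unmarked islands was 13534 with an overlap of 50%, 8187 with deleted-tumor islands extended by 1000 bp and 10094 without H3K4me3 in deleted tumors. It dropped to 1252 and 924 in the upper 50% of the positive list by density and by count, and to 1620 and 597 with that list cut, by density or count, from 291.8 to the 227.1 Mb of the deleted list, a cut that removes weak islands by construction. The share in the lowest 3 of 10 groups was 66.8% by read count and 47.5% within equal width.

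Shares with a peak depended on the peak rule and on island strength. With the summit inside the island, upper-50% peaks, upper-50% islands, summits within 500 bp of the centre and an overlap of 50% in the rule, Nkx2-1 was at 6.15%, 3.47%, 19.8%, 4.66% and 15.5%, and Foxa1/2 of positive tumors at 3.68%, 2.05%, 13.6%, 2.71% and 11.4%. The differences from lost islands keeping H3K4me1 were then -13.7, -9.32, -35.3, -8.34 and -9.57 points for Nkx2-1 and -12.8, -7.97, -28.9, -7.61 and -9.96 points for Foxa1/2; under H3K4me1 of positive tumors they were -7.98 and -10.3, chosen after seeing the data. Foxa1/2 of deleted tumors was at 0.0688% with upper-50% peaks, 0.148% near the centre and 1.404% with an overlap of 50%. The absent share of Foxa1/2 peaks, with alternatives chosen after seeing the data, was 93.4% for upper-50% peaks, 97.6% for upper-50% islands and 90.1% with an overlap of 50%.

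With 50% of the island covered, upper-50% islands and the upper 50% of the other mark, H3K4me1 of positive tumors was at 42.8%, 63.5% and 12.9%, H3K4me3 of deleted tumors at 0.570%, 2.08% and 0%, and H3K4me3 of positive tumors at 2.40%, 10.4% and 0.511%. H3K27me3 of positive tumors was at 1.82% with 50% covered and 0.364% with the upper 50% of its list. Median distances to deleted-tumor and to kept islands were 7400 and 8400 bp between centres, and 6400 and 5500 bp for upper-50% islands. Total depth is not given, so no alternative equalised it, and its part in these values was not tested.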

Other observations

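Lost unmarked islands were spread over all autosomes, from 10.9% of the islands examined on chromosome 11 to 17.5% on chromosome 18, with a median of 14.5% over the 19 autosomes. Chromosome X, left out of the rule, had 311 of 1560 islands (19.9%) that met the same overlap criteria, a higher share than any autosome. The median density of lost unmarked islands was between 68.0 and 70.4 reads per kb on every autosome, and the share with Nkx2-1 lowest on chromosome 15, at 6.65%, and highest on chromosome 9. Foxa1/2 of positive tumors was also most frequent on chromosome 9, at 8.49%, and least on chromosome 11, at 3.42%.

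In windows of 1 Mb, 1816 of 2107 windows with an island examined held a lost unmarked island, with a median of 4 over all of these windows. The highest number was 33 of 106 islands at chr16:24000001-25000000, followed by 30 of 62 at chr10:96000001-97000000 and 29 of 73 at chr1:153000001-154000000. The windows chr10:94000001-95000000 and chr10:95000001-96000000 held 28 each, of 82 and 89 islands.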
